A study of Rattus norvegicus with 72 samples.

Results

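The amino acid transporter families described here are 53 genes, out of 14217 gene symbols that had a probe set of their own on the array. They are the genes whose platform symbol starts with Slc1a, Slc3a, Slc6a, Slc7a, Slc36a, Slc38a or Slc43a followed by a digit, and each is described by its brightest probe set. The families held 6 genes of Slc1, 2 of Slc3, 16 of Slc6, 15 of Slc7, 3 of Slc36, 9 of Slc38 and 2 of Slc43. The symbol Slc7a6os met the naming rule, but it belongs to a neighbour of Slc7a6 that encodes no carrier. Of the 53 genes 41 had 1 probe set and 12 had several.

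These carriers bring amino acids into cells or exchange them across the membrane, and several families divide the work. The Slc7 light chains reach the surface bound to a heavy chain, Slc3a1 or Slc3a2, and exchange one amino acid for another. Sodium-coupled carriers of Slc1, Slc6 and Slc38 build up the pools that these exchangers spend. The lactating mammary gland draws large amounts of amino acids from blood for milk protein, whereas the liver takes up gluconeogenic amino acids and glutamine.

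The arrays covered 3 tissues (mammary gland, M, liver, L, and adipose tissue, A) at 2 stages (pregnancy and lactation) and 2 gravities (standard, S, and hypergravity, H, which exceeds Earth's), with 5 arrays for each of the 12 combinations. An array is named by tissue, a number taken here as the rat, and gravity, as in M42S, and lactating rats have 3-digit numbers. The labels do not say whether a number names the same rat in the 3 tissues. The microgravity set was apart from these, with 4 arrays of pregnant mammary gland in microgravity (FLT), 4 of flight controls (FDS) and 4 of vivarium controls (VIV). No group carried an engineered allele per the labels, and strain, age, the day of pregnancy or lactation, the load and its duration are not given in the sources used here. The labels do not say whether the 4 arrays of a microgravity group came from separate rats, so p-values there measure only the spread between arrays.

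The tissue labels were checked against marker lists, as mean log2 signal per array. In mammary gland the milk protein genes lay between 12.53 and 13.23, against 2.82 to 5.88 in liver and adipose tissue. Hepatocyte genes lay between 11.98 and 12.29 in liver, and adipocyte genes between 9.55 and 10.75 in adipose tissue against 7.15 to 8.33 in mammary gland. M210H, labelled mammary, had milk protein genes at 2.97 and adipocyte genes at 10.3, and A210H, labelled adipose, had milk protein genes at 13.1. Both were left out of every result below. M56H and M52S carried hepatocyte genes, M50H, M212H, A48S, A217H, VIVA and VIVC skeletal muscle genes, and L55H, L214S and A55H milk protein genes, and where a call on a gene named below was lost or gained without them, that is given beside it. Lymphocyte genes were not part of this check. Their means were highest in FDSB (9.19), A56H (7.63), M60H (7.08) and M219S (6.89), which are not among the arrays listed as carrying markers of another tissue.

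The median log2 signal of an array was 4.32 to 4.56 in the 60 arrays outside the microgravity set and 4.87 to 5.02 within it. Levels were therefore compared only within a set. Of the 53 genes 26 had a mean above the array medians in mammary gland, 26 in liver, 25 in adipose tissue, 19 in all 3 tissues and 21 in none. Genes with means below the medians are dim, and their folds are approximate. A gene is called where its adjusted p from limma, corrected over all 31042 probe sets, is under 0.05. The number of arrays limits the precision of every value.

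In the mammary gland at standard gravity, the large neutral exchangers Slc7a5 and Slc7a8, the small neutral carriers Slc1a4 and Slc38a2 and the cationic carrier Slc7a1 were higher in lactation than in pregnancy. The taurine carrier Slc6a6, the creatine carrier Slc6a8, the large neutral uniporter Slc43a2 and the neutral and cationic carrier Slc6a14 were lower. Of the 53 genes 9 were called higher, where 14.4% of all genes were, and 8 were called lower, where 25.7% of all genes were. The 17 calls are 32.1% of the 53, so the share called was no larger than among genes at large. For 13 of the 53 (24.5%) the 2 groups did not overlap, against 31.5% of all genes. The median change of the 53 genes was -0.03, against -0.10 over all genes.

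By adjusted p, the exchangers of large neutral amino acids came first among the light chains. Slc7a5 encodes LAT1, which takes up leucine and other essential amino acids and lies on chromosome 19 of the GRCr8 assembly at 66843808 to 66872412. Its log2 signal was 4.88, 3.94, 4.07, 4.16 and 4.23 in pregnancy (M42S, M44S, M48S, M52S and M57S) and 6.28, 5.89, 5.78, 6.04 and 6.23 in lactation (M201S, M202S, M214S, M216S and M219S). Every lactating array lay above every pregnant one. The difference was 1.79 ± 0.21 (SE), a 3.45-fold rise (adjusted p = 8.96e-06). Slc7a8, which encodes the related LAT2, rose by 1.05 ± 0.22 (adjusted p = 0.00127), from 3.87 ± 0.35 to 4.92 ± 0.34 (SD, n = 5 each), without overlap. Slc7a11, the cystine and glutamate exchanger, rose by 1.52 ± 0.34 (adjusted p = 0.00202), from 3.99 ± 0.15 to 5.51 ± 0.65 (SD, n = 5 each), without overlap. Slc7a5, Slc7a8 and Slc7a11 were dim in pregnancy, and 5 of the 9 light chains had a mammary mean above the array medians. Of these 9 genes 3 were called higher and 0 lower, where 14.4% and 25.7% of all genes were.

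The heavy chain that carries these light chains was not called at standard gravity. Slc3a2, which encodes 4F2hc, stood at 8.84, 8.47, 7.97, 8.30 and 8.24 in pregnancy and at 8.02, 7.94, 8.22, 7.98 and 7.96 in lactation, in the order of arrays above. The groups overlapped, and the difference of -0.34 ± 0.24 did not pass the test (adjusted p = 0.316). The other heavy chain gene, Slc3a1, which serves cystine and dibasic amino acids, was dim and rose by 0.93 ± 0.30 (adjusted p = 0.024). That call was lost without any 1 of M42S, M44S, M48S or M201S (adjusted p up to 0.0618), and without the arrays that carried markers of another tissue (0.94, adjusted p = 0.0562).

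Among the cationic carriers, Slc7a1 was the gene that rose. It encodes CAT1, which takes up arginine and lysine, on chromosome 12 at 11664488 to 11740030. Pregnant arrays read 10.42, 9.73, 9.97, 9.68 and 9.38, and lactating arrays 11.48, 11.67, 11.29, 11.20 and 11.25. The 2 groups did not overlap, and the difference was 1.54 ± 0.18, or 2.91-fold (adjusted p = 6.26e-06). A second of its 3 probe sets rose by 2.07 (adjusted p = 5.63e-05) and the third changed by 0.14 (adjusted p = 0.364). Slc7a2, the CAT2 gene, was dim and changed by -0.03 ± 0.13 (adjusted p = 0.891).

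In family Slc1, the neutral exchanger Slc1a4 and the glutamate carrier Slc1a2 rose. Slc1a4 encodes ASCT1, an exchanger of alanine, serine, cysteine and threonine, on chromosome 14 at 98718646 to 98761672. It read 7.88, 7.02, 7.68, 7.51 and 7.22 in pregnancy and 9.56, 9.12, 9.20, 8.39 and 9.04 in lactation, a rise of 1.60 ± 0.24 (3.02-fold, adjusted p = 8.91e-05) without overlap. Slc1a2, which encodes the glutamate carrier GLT-1, read 4.30, 3.92, 3.78, 4.02 and 4.26 in pregnancy, under the array medians, and 6.78, 5.99, 6.63, 7.51 and 6.48 in lactation. Its rise of 2.62 ± 0.23 (6.16-fold, adjusted p = 4.86e-07) was the greatest among the 53 genes, though a second probe set of the gene changed by 0.11 (adjusted p = 0.491). Slc1a5, which encodes the glutamine exchanger ASCT2, changed by -0.58 ± 0.38 (adjusted p = 0.277), and its groups overlapped.

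Of the 3 system A carriers, which take up small neutral amino acids with sodium, 1 rose. Slc38a2 encodes SNAT2 and read 10.62, 10.19, 10.83, 10.49 and 10.11 in pregnancy against 11.44, 10.74, 11.43, 11.14 and 11.23 in lactation. The lowest lactating array, M202S, lay under the highest pregnant one, M48S, and the difference was 0.75 ± 0.16 (1.68-fold, adjusted p = 0.00126). Slc38a1 differed by 0.75 ± 0.39 (adjusted p = 0.151), with M219S at 8.03 and the other lactating arrays between 6.20 and 6.96. Slc38a4 was dim, at 4.08 ± 0.54 and 3.45 ± 0.34 (adjusted p = 0.555). Of the Slc38 members outside systems A and N, Slc38a6 fell by 1.01 on the log2 scale (adjusted p = 0.0022). The dim Slc38a9, an arginine sensor on lysosomes, fell by 0.53 (adjusted p = 0.00343), both without overlap.

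The proximal promoters of 41 of the 53 genes, from RefSeq on assembly GRCr8, were available as 46 windows from 250 bases before to 50 bases after the start. They were searched on both strands for the core of the ATF4 composite element, TGATGNAA, through which amino acid shortage is known to act. It was found in 3 genes, Slc1a4, Slc7a1 and Slc38a1, and in 3.98% of all 33469 windows. The windows, each 5′ to 3′ along its gene, show these 3 with the matched letters in capitals, and that of Slc7a5, which rose and has no match in this window. The first matched base lies at -30 in Slc7a1 and -142 in Slc38a1 from the start, and at -235 on the reverse strand in Slc1a4. They are chr12:11664238-11664537 on the plus strand for Slc7a1, and on the minus strand chr14:98761513-98761812 for Slc1a4, chr7:129681352-129681651 for Slc38a1 and chr19:66872363-66872662 for Slc7a5.
Slc7a1: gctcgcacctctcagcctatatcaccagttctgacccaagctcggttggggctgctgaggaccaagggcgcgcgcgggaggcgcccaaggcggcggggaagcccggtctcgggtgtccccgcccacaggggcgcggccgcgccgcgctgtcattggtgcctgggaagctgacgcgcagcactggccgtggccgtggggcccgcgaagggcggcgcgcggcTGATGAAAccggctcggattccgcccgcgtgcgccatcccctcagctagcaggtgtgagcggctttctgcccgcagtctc
Slc1a4: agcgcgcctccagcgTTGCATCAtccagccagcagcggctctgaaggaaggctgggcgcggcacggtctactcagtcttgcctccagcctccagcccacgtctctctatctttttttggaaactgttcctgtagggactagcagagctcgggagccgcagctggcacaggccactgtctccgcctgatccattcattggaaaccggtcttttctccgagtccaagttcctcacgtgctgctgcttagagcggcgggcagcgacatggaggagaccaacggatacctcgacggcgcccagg
Slc38a1: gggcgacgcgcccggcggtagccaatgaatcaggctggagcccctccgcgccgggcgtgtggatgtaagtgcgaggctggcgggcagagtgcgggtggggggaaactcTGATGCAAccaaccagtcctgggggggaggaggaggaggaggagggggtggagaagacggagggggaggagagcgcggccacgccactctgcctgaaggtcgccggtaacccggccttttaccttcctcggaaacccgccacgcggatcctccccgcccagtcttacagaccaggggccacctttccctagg
Slc7a5: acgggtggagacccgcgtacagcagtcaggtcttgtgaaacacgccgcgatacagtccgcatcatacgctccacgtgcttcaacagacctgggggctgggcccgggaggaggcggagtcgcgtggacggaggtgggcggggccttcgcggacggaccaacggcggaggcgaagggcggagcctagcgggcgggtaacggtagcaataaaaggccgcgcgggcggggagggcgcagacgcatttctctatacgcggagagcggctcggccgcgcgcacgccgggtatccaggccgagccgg

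Of these 3 genes with a match, Slc1a4 and Slc7a1 rose in lactation at standard gravity and Slc38a1 did not pass the test. Of the other 5 motifs searched, the E-box CACGTG was in 7 genes, including Slc1a4 and Slc7a5, and in 6.42% of all windows, and TGAGTCA was in 4 genes (Slc3a1, Slc6a5, Slc6a14 and Slc6a17) and 4.63% of windows. TGACNNNGC was in 8 genes and 12.1% of windows, TGACGTCA in 1 gene, Slc38a6, and 1.83%, and TTCNNNGAA, the letters bound by STAT factors, in 0 genes and 8.87%. A match here is only a run of letters in these windows.

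Both carriers of osmolytes and creatine fell in lactation at standard gravity. Slc6a6 encodes TauT, the taurine carrier, and read 8.21, 9.32, 8.77, 8.92 and 9.64 in pregnancy and 5.63, 6.91, 5.88, 5.68 and 6.72 in lactation. It fell by 2.81 on the log2 scale (SE 0.38, 7.01-fold, adjusted p = 2.93e-05) without overlap. A second probe set of Slc6a6 changed by 0.21 (adjusted p = 0.72), so the fall rests on the brighter one. Slc6a8, which encodes the creatine carrier, fell by 1.31 (SE 0.26, adjusted p = 0.000948), from 6.46 ± 0.29 to 5.15 ± 0.44 (SD, n = 5 each), and its second probe set changed by -0.01 (adjusted p = 0.972).

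Among the other Slc6 genes, 1 rose and 3 fell by their brightest probe set. Slc6a17 was not called (0.09, adjusted p = 0.822). A dimmer 1 of its 5 probe sets was called lower (-1.11, adjusted p = 0.00403), also in hypergravity (-1.03, adjusted p = 0.0117). Slc6a14 encodes a carrier of broad range for neutral and cationic amino acids, and read 5.11, 5.40, 4.94, 4.35 and 5.01 in pregnancy against 3.23, 2.82, 3.07, 2.95 and 3.09 in lactation. Lactating arrays lay under the array medians, below every pregnant array, and the fall was 1.93 ± 0.49 on the log2 scale (adjusted p = 0.00523). Slc6a20a, the proline carrier gene, read 4.76, 6.15, 5.21, 4.98 and 6.32 against 3.57, 4.13, 3.49, 3.11 and 2.63. It fell by 2.10 on the log2 scale (SE 0.33, adjusted p = 9.95e-05), while its second probe set changed by 0.06 (adjusted p = 0.849). Slc6a4, the serotonin carrier, fell by 1.57 on the log2 scale (SE 0.43, adjusted p = 0.00808), with groups that overlapped, and lost its call with M210H kept in the fit (adjusted p = 0.0821). Slc6a9, the glycine carrier GlyT1, rose by 1.06 ± 0.28 (adjusted p = 0.00704), though M216S at 5.56 lay within the pregnant range and neither of its other 2 probe sets was called.

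The Slc43 uniporters let large neutral amino acids leave or enter without an exchange partner. Slc43a2, which encodes LAT4, read 9.06, 8.78, 8.42, 8.52 and 8.43 in pregnancy and 6.88, 6.19, 6.98, 7.48 and 6.58 in lactation. It fell by 1.82 on the log2 scale (SE 0.30, 3.54-fold, adjusted p = 0.000173) without overlap, and its second probe set changed by 0.19 (adjusted p = 0.747). Slc43a1, the LAT3 gene, changed by -0.45 ± 0.30 (adjusted p = 0.268). None of the 3 Slc36 genes, which encode proton-coupled carriers, was called in either mammary stage comparison.

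**Figure D1:**
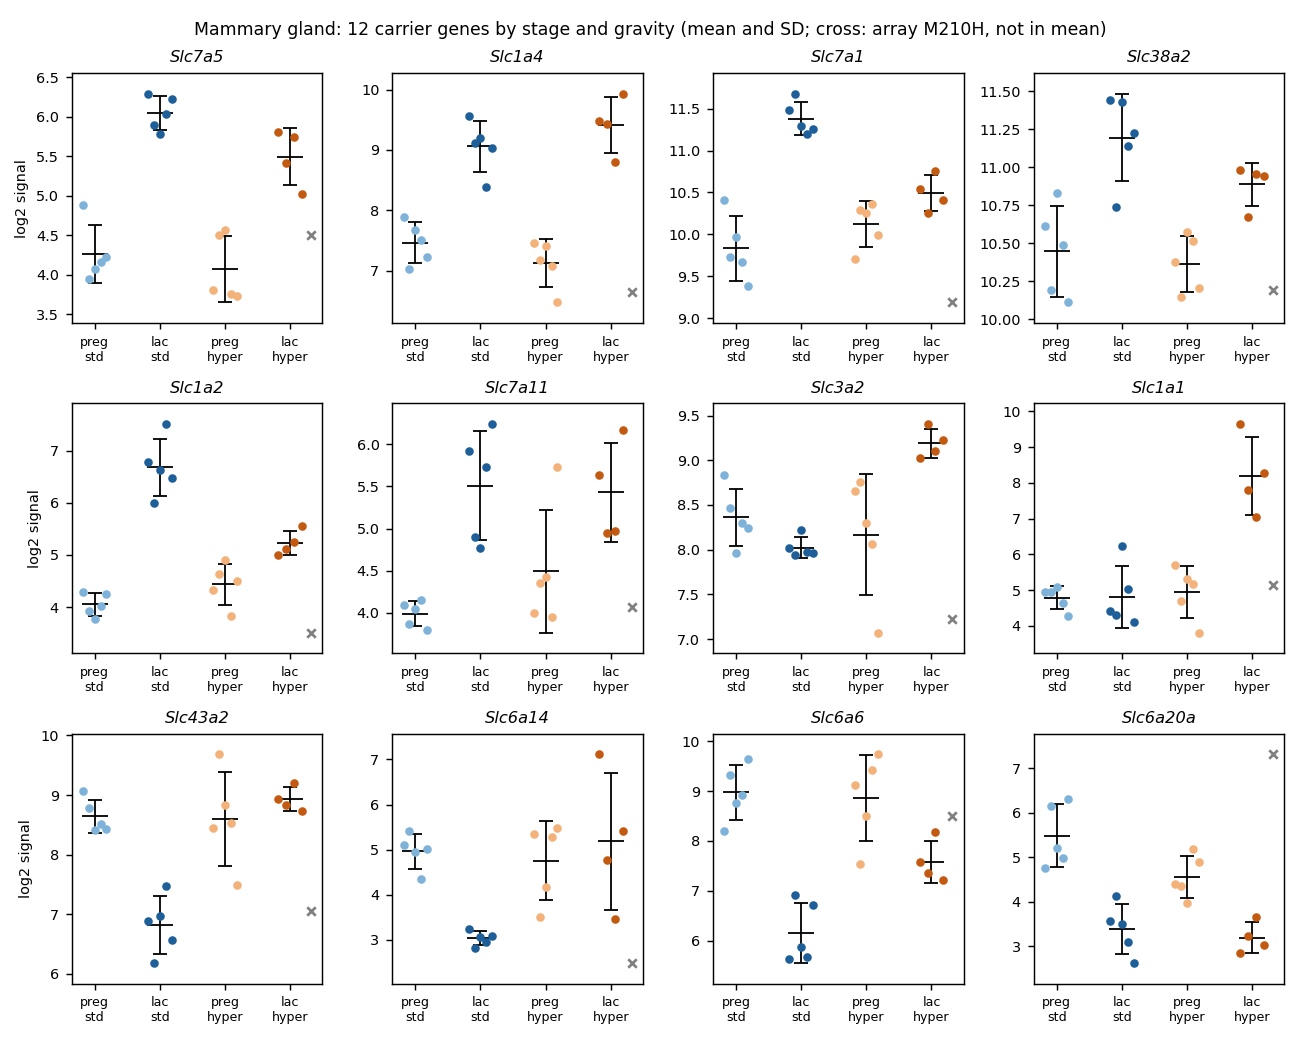
Log2 signal of 12 carrier genes in mammary gland, 1 panel a gene, for pregnant (preg) and lactating (lac) rats at standard gravity (std) and in hypergravity (hyper); dots are arrays, bars the mean and SD, and the cross is M210H, which is in no mean. Slc7a5 and Slc1a4 are higher in lactation at both gravities, whereas Slc1a1 stands between 7.05 and 9.64 in the 4 lactating hypergravity arrays and at most 6.23 in the other groups.

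In hypergravity the stage comparison gave 6 genes called higher, where 13.5% of all genes were, and 8 called lower, where 21.2% were. For 9 of the 53 genes (17.0%) the groups did not overlap, against 21.6% of all genes. Slc1a2, Slc1a4, Slc38a2 and Slc7a5 were called higher at both gravities, and Slc6a4, Slc6a6, Slc6a8 and Slc6a20a were called lower at both. These 8 are 47.1% of the 17 calls at standard gravity and 57.1% of the 14 in hypergravity. Over all genes the calls shared in direction were 56.9% and 65.7%, so the overlap was no larger in the families. The stage comparisons at the 2 gravities share no arrays. With M210H kept in its labelled group, 9 of the 14 calls in hypergravity were lost (adjusted p from 0.0746 to 0.658), those of Slc1a2, Slc1a5, Slc3a2, Slc6a4, Slc6a8, Slc6a20a, Slc7a6os, Slc38a2 and Slc43a1.

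Slc1a4 read 7.46, 7.18, 7.40, 7.08 and 6.47 in pregnancy in hypergravity (M50H, M55H, M56H, M59H and M60H) and 9.48, 9.43, 8.80 and 9.93 in lactation (M203H, M206H, M212H and M217H). It rose by 2.29 ± 0.26 (4.88-fold, adjusted p = 1.41e-05). Slc7a5 read 3.81, 4.50, 4.57, 3.75 and 3.73 against 5.80, 5.42, 5.74 and 5.02, a rise of 1.42 ± 0.23 (2.68-fold, adjusted p = 0.000238). Neither gene's groups overlapped, as at standard gravity. Slc38a2 rose by 0.52 ± 0.17 (adjusted p = 0.0239), a call lost without M55H, M60H, M203H, M212H or M217H (adjusted p up to 0.0652), without the arrays that carried markers of another tissue (0.0643) and with quantile normalization repeated (0.33, adjusted p = 0.125). Slc1a2 rose by 0.79 ± 0.25 (adjusted p = 0.0219), a call lost without M59H or M217H (up to 0.0735).

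Slc1a1 and Slc3a2 were called higher in lactation in hypergravity but not at standard gravity. Slc1a1 encodes EAAC1, a carrier of glutamate and aspartate that also takes up cysteine, on chromosome 1 at 235963455 to 236043572. It read 5.71, 4.68, 5.31, 5.18 and 3.81 in pregnancy and 9.64, 7.79, 7.05 and 8.29 in lactation, a rise of 3.26 ± 0.49 (9.55-fold, adjusted p = 0.000146). Its second probe set rose by 1.61 (adjusted p = 0.00175). At standard gravity the same comparison gave 0.02 ± 0.46 (adjusted p = 0.98), with 1 lactating array, M214S, at 6.23 and the others between 4.09 and 5.02.

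Slc3a2 read 8.65, 8.76, 8.30, 8.06 and 7.07 in pregnancy and 9.03, 9.40, 9.10 and 9.23 in lactation. The lactating arrays all lay above the pregnant ones, by 1.02 ± 0.25 (2.03-fold, adjusted p = 0.00578). Of the light chains that rose at standard gravity, Slc7a11 differed by 0.94 ± 0.36 (adjusted p = 0.0578) and Slc7a8 by 0.23 ± 0.23 (adjusted p = 0.512) in hypergravity. Slc7a11 passed the threshold with array weights (1.21, adjusted p = 0.0115), with dim probe sets left out (0.0367) and with the mean over probe sets (0.0489). The difference of their stage effects between gravities did not pass the test (adjusted p = 0.688 and 0.206).

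The cationic carrier Slc7a1 lay between 9.71 and 10.36 in pregnancy and read 10.54, 10.26, 10.76 and 10.41 in lactation, with groups that overlapped, and was not called (0.37 ± 0.19, adjusted p = 0.158). Its probe sets disagreed here, since the second was called higher by 0.91 (adjusted p = 0.0385).

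Slc6a4, the serotonin carrier, read 6.26, 4.91, 5.11, 6.95 and 6.90 in pregnancy in hypergravity and 3.26, 4.35, 4.57 and 4.18 in lactation, without overlap. It fell by 1.94 on the log2 scale (SE 0.45, adjusted p = 0.00391). Slc6a20a fell by 1.37 on the log2 scale (SE 0.34, adjusted p = 0.00636), from 4.56 ± 0.48 (n = 5) to 3.19 ± 0.35 (n = 4), also without overlap. Slc6a8 fell by 1.17 (SE 0.28, adjusted p = 0.00459), and 1 pregnant array, M56H at 5.36, lay within the lactating range. Slc6a6 fell by 1.28 (SE 0.40, adjusted p = 0.0224), with groups that overlapped.

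The 2 probe sets of Slc6a6 went opposite ways in this comparison, the second rising by 1.31 (adjusted p = 0.0146), and their mean changed by 0.01 (adjusted p = 0.976). The fall of Slc6a6 is thus a property of 1 probe set. It was also lost without M59H, M60H, M206H or M217H (adjusted p up to 0.066). The other 4 genes called lower were Slc1a5 (fell by 1.40, adjusted p = 0.0152), Slc43a1 (fell by 1.12, adjusted p = 0.0121), Slc38a10 (fell by 1.07, adjusted p = 0.00766) and Slc7a6os (fell by 0.69, adjusted p = 0.0354). The first 2 calls were lost without M203H (adjusted p = 0.0501 and 0.0549), and the last without any 1 of 7 arrays (up to 0.0997), with trend and robust eBayes (0.0505) and with quantile normalization repeated (0.0514). With only the groups compared in the fit, Slc1a5, Slc43a1, Slc6a6 and Slc7a6os lost their calls (adjusted p = 0.0602, 0.0545, 0.0609 and 0.109). Slc7a6 was not called (-0.91 ± 0.35, adjusted p = 0.0603), but was called lower without the arrays that carried markers of another tissue (-1.16, adjusted p = 0.0277), with array weights (0.00128) and with dim probe sets left out (0.0386).

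**Figure D2:**
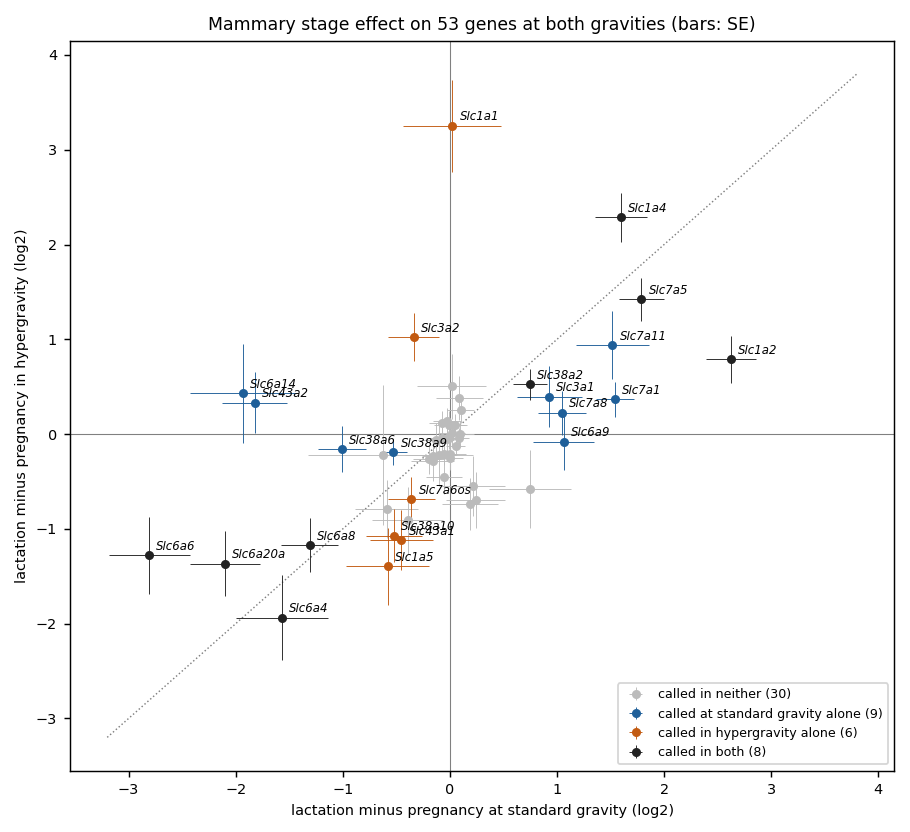
Difference of log2 signal between lactation and pregnancy in mammary gland for the 53 genes, at standard gravity (x axis) and in hypergravity (y axis), with SE bars and a dotted line of equality; colours show where a gene was called. Slc1a1 sits at 0.02 on the x axis and 3.26 on the y axis, and Slc43a2 at -1.82 and 0.33, while the 8 genes called at both gravities keep their direction.

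Between gravities, no gene of the families was called in the pregnant mammary gland by limma, where 0.00703% of all genes were, which is 1 gene. An unadjusted p under 0.05 was found for 3 of 53 (5.66%) and for 5.54% of all genes. The 2 smallest p belonged to Slc1a3, the glutamate carrier GLAST, at -0.97 ± 0.32 (adjusted p = 0.747), and to Slc6a20a at -0.92 ± 0.33 (adjusted p = 0.777). Their groups overlapped.

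In the lactating mammary gland 5 genes were called higher in hypergravity than at standard gravity, where 6.22% of all genes were, and 4 lower, where 6.23% of all genes were. The glutamate carrier Slc1a1, the broad carrier Slc6a14, the uniporter Slc43a2, the taurine carrier Slc6a6 and the heavy chain Slc3a2 were higher. The glutamate carrier Slc1a2, the glycine carrier Slc6a9, the cationic carrier Slc7a1 and its relative Slc7a4 were lower. The median change of the 53 genes was -0.04, against 0.02 over all genes.

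Slc1a1, with the lactating values given above, was higher by 3.39 ± 0.49 (10.4-fold, adjusted p = 0.000157), and its second probe set by 1.91 (adjusted p = 0.000965). Slc43a2 read 8.94, 8.84, 9.21 and 8.74 in hypergravity, against at most 7.48 at standard gravity, and was higher by 2.11 ± 0.32 (4.32-fold, adjusted p = 0.000263). Its second probe set differed by 0.53 (adjusted p = 0.519). Slc3a2 was higher by 1.17 ± 0.25 (2.25-fold, adjusted p = 0.0055), with every hypergravity array above every standard one.

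Slc6a14 was spread widely in hypergravity, at 7.11, 4.78, 3.45 and 5.41, yet the lowest of these, M212H, lay above the highest standard gravity array at 3.23. It was higher by 2.16 ± 0.52 (4.46-fold, adjusted p = 0.0118), a fold taken against dim values. Slc6a6 read 7.58, 7.36, 8.17 and 7.21 and was higher by 1.42 ± 0.40 (adjusted p = 0.0309) without overlap. Here its second probe set went the same way, by 1.65 (adjusted p = 0.00817). Its call was lost without M201S, M214S, M216S, M203H, M206H or M212H (adjusted p up to 0.103) and without the arrays that carried markers of another tissue (adjusted p = 0.136). With M210H kept, the calls of Slc3a2 and Slc6a14 were lost (adjusted p = 0.226 and 0.118).

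Of the lower genes, Slc1a2 read 4.99, 5.12, 5.25 and 5.55 in hypergravity, below all standard gravity arrays, by 1.45 ± 0.25 on the log2 scale (2.73-fold, adjusted p = 0.000745). Its second probe set differed by -0.01 (adjusted p = 0.985). Slc7a1 was lower by 0.89 ± 0.19 (1.85-fold, adjusted p = 0.00426) without overlap, with a second probe set lower by 1.07 (adjusted p = 0.042). Slc6a9 fell by 1.24 on the log2 scale (SE 0.30, adjusted p = 0.0115), with 1 standard gravity array, M216S, inside the hypergravity range. The other probe sets of Slc6a9 differed by -0.28 (adjusted p = 0.486) and -0.03 (adjusted p = 0.973). Slc7a4, a relative of the cationic carriers, fell by 0.96 on the log2 scale (adjusted p = 0.047), a call that was lost without any 1 of the 9 arrays (adjusted p from 0.0599 to 0.129), without the arrays that carried markers of another tissue (0.0763) and with trend and robust eBayes (0.0527).

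Slc7a5 and Slc1a4, which were higher in lactation at both gravities, did not differ between gravities beyond the test. Slc7a5 differed by -0.55 ± 0.23 (adjusted p = 0.164) and Slc1a4 by 0.35 ± 0.26 (adjusted p = 0.565). Slc7a5 was called lower in hypergravity with array weights (-0.605, adjusted p = 0.0212). Slc7a6 was not called either, but was called lower with array weights (-0.878, adjusted p = 0.00555) and with only the groups compared (-0.906, adjusted p = 0.000997). Slc7a8 differed by -0.72 ± 0.23 (adjusted p = 0.0606), with groups that did not overlap, and passed with array weights (0.0184), with only the groups compared (0.0353) and with the mean over probe sets (0.0443). Slc38a2, Slc38a1 and Slc7a11 differed by -0.31 ± 0.17, -0.71 ± 0.41 and -0.08 ± 0.36 (adjusted p = 0.342, 0.391 and 0.964).

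The stage effect itself differed between gravities in 5 of the 53 genes, where 5.65% of all genes were called. Lactation minus pregnancy went from 0.02 at standard gravity to 3.26 in hypergravity for Slc1a1, a signed difference of 3.23 ± 0.67 (adjusted p = 0.00876). For Slc43a2 it went from -1.82, a called fall, to 0.33, which was not called (adjusted p = 0.477), a signed difference of 2.16 ± 0.44 (adjusted p = 0.00793). For Slc3a2 it went from -0.34 to 1.02, a difference of 1.36 ± 0.35 (adjusted p = 0.0327). The rises of Slc1a2 and Slc7a1 were smaller in hypergravity, at 0.79 against 2.62 and 0.37 against 1.54, with differences of -1.83 ± 0.34 (adjusted p = 0.00376) and -1.18 ± 0.26 (adjusted p = 0.0129). For Slc6a14 and Slc6a6 the differences of 2.36 ± 0.72 and 1.53 ± 0.55 did not pass (adjusted p = 0.0792 and 0.16). Slc6a14 passed without the arrays that carried markers of another tissue (3.10, adjusted p = 0.0206), and Slc6a6 with the mean over its probe sets (1.31, adjusted p = 0.0402). The Slc3a2 call was lost without any 1 of 10 arrays (adjusted p up to 0.0761), and that of Slc43a2 without the arrays that carried markers of another tissue (adjusted p = 0.0506). With M210H kept, the calls of Slc1a1, Slc43a2 and Slc3a2 were lost (adjusted p = 0.127, 0.0998 and 0.417).

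Some marker lists moved with these comparisons and others overlapped between stages. At standard gravity adipocyte genes stood at 7.61 to 8.17 in pregnancy and 7.15 to 8.08 in lactation. Myoepithelial genes stood at 7.20 to 7.89 and 7.26 to 7.87, and endothelial genes at 8.85 to 9.27 and 8.75 to 9.49. At standard gravity the mean of the luminal epithelial genes stood between 9.74 and 10.82 in pregnancy and between 9.11 and 9.30 in lactation. Of these genes 5 of 6 were called lower in lactation, where 25.7% of all genes were. In lactation in hypergravity their mean stood between 10.18 and 10.37. There 4 of 6 were called higher than at standard gravity, against 6.22% of all genes. Macrophage genes stood, at standard gravity, between 8.83 and 9.48 in pregnancy and between 7.38 and 7.88 in lactation. Of them 5 of 6 fell, where 25.7% of all genes were called lower. In lactation in hypergravity macrophage genes stood between 8.27 and 8.96. Milk protein genes lay, at standard gravity, between 12.53 and 12.96 in pregnancy and between 13.08 and 13.23 in lactation. The part of these shifts in the carrier results was not tested. In whole tissue, fewer cells of a type and less RNA per cell cannot be told apart.

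Other genes of amino acid handling were followed as lists, of which none was tested as a list. At standard gravity 14.4% of all genes were called higher in lactation and 25.7% lower, and the counts of each list stand beside those shares. At standard gravity 5 of 21 genes of the ATF4 amino acid response were higher in lactation and 2 lower, led by Aldh18a1 (1.79, adjusted p = 6.03e-07), Psat1 (1.42) and Mthfd2 (1.20), which make proline precursors, serine and folate units. Of 22 genes of mTORC1 and amino acid sensing 4 rose and 11 fell, and Rragd (-3.23), Tsc1 (-2.02) and Mlst8 (-1.86) changed most. Of 19 cytosolic aminoacyl-tRNA synthetases, which charge tRNA, 4 rose and 5 fell, with Qars1 at -1.31, Tars1 at 1.20 and Farsa at -1.07. In the glutathione list 2 of 10 rose and 3 fell, with Ggt1, the γ-glutamyltransferase of the cell surface, at 2.53 (adjusted p = 1.02e-05), Anpep at -1.57 and Ggt5 at -1.11. Of 18 catabolic genes 2 rose and 2 fell, with Ass1 at 2.67, Asl at -1.79 and Prodh at -1.35. Of 17 carriers of other families 1 rose, the peptide carrier Slc15a2 (1.42), and 4 fell, led by Slc66a1 (-1.27) and Slc25a12 (-1.10).

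In hypergravity the stage comparison, with 13.5% of all genes called higher and 21.2% lower, gave for the synthetases 0 higher and 11 lower of 19, with Cars1 at -1.86, Aars1 at -1.36 and Vars1 at -1.15. The ATF4 list gave 2 higher and 5 lower of 21, with Phgdh at -1.42, Cbs at -1.39 and Asns at -1.21. The mTORC1 list gave 4 higher and 9 lower of 22, the other carriers 2 and 7 of 17, the glutathione list 0 and 4 of 10 and the catabolic list 1 and 4 of 18. In lactation, hypergravity against standard gravity, with 6.22% of all genes called higher and 6.23% lower, gave 2 higher and 4 lower in the ATF4 list, with Atf3 at 1.92, Aldh18a1 at -1.62 and Psat1 at -1.54, and 0 higher and 5 lower among the synthetases, led by Yars1 at -1.20. Ggt1 fell by 3.44 (adjusted p = 2.66e-06), Aass by 3.22 and Ass1 by 3.05 there, while the peptide carrier Slc15a1 rose by 2.63. Lactation minus pregnancy was lower in hypergravity than at standard gravity for Ggt1 (difference -3.28, adjusted p = 0.000356), Ass1 (-3.08) and Aldh18a1 (-1.89), 3 genes that had risen in lactation at standard gravity.

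The tissues differed at many members, as they did at genes in general. Of the 53 genes 73.6% were called between mammary gland and liver, 49.1% between mammary gland and adipose tissue and 71.7% between liver and adipose tissue, against 73.1%, 60.9% and 67% of all genes. Between mammary gland and liver, averaged over the 4 stage and gravity groups, 20 of 53 genes were called higher in mammary gland, where 41.2% of all genes were, and 19 lower, where 31.9% were. Against adipose tissue 14 were higher in mammary gland (34.3% of all genes) and 12 lower (26.6%). Between liver and adipose tissue 20 were higher in liver (33.3% of all genes) and 18 lower (33.7%). With each array centred on its median the splits became 18 higher and 28 lower for mammary gland against liver and 28 and 16 for liver against adipose tissue, as the median over all probe sets moved from -0.05 to -0.17 and from 0.05 to 0.19. The genes named next differ by far more than that.

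Mammary gland led for the cationic carrier Slc7a1, which ranged from 9.38 to 11.67 in 19 mammary arrays, from 5.71 to 7.40 in 20 liver arrays and from 7.63 to 10.09 in 19 adipose arrays. It was higher in mammary gland than in liver by 3.98 ± 0.15 (adjusted p = 8.61e-29) and than in adipose tissue by 1.63 ± 0.16 (adjusted p = 4.8e-13). Slc7a6, which encodes y+LAT2, an exchanger of cationic for neutral amino acids, was higher than in liver by 3.36 ± 0.16, Slc1a3 by 3.14 ± 0.19 and Slc1a1 by 2.50 ± 0.20. Against adipose tissue the next differences were 2.08 ± 0.20 for Slc1a4, 2.05 ± 0.16 for Slc6a14 and 1.72 ± 0.12 for Slc1a2. Slc6a14 reached at most 3.06 in liver and 2.61 in adipose tissue, under the array medians there.

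Liver led for the system A carrier Slc38a4 (SNAT4), which lay between 11.01 and 11.97 in all liver arrays. It was lower in mammary gland by 7.23 on the log2 scale (SE 0.30, adjusted p = 3.15e-27) and higher in liver than in adipose tissue by 7.41 ± 0.30. Outside liver it reached 8.46 in M56H, whose hepatocyte genes averaged 9.71, and 8.44 in A48S, whose skeletal muscle genes averaged 12.35, and their part in these 2 values was not tested. Slc6a13, the carrier GAT2 for GABA and taurine, ranged from 7.79 to 9.15 in liver and at most 4.14 in mammary gland. Slc38a3 (SNAT3), the system N carrier of glutamine, was higher in liver than in adipose tissue by 4.91 ± 0.12, and Slc6a9 by 4.55 ± 0.16, while mammary gland fell below liver by 3.69 for each.

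Adipose tissue led for Slc1a3, at 11.45 to 12.36 against 3.57 to 7.02 in liver (liver minus adipose -6.29 ± 0.19, adjusted p = 9.78e-34). Slc1a5, the ASCT2 glutamine exchanger, lay between 6.86 and 9.48 in adipose tissue, with a liver difference of -5.05 ± 0.18 and a mammary difference of -3.02 ± 0.18. Slc36a2, a proton-coupled carrier of glycine and proline, and Slc38a1 (SNAT1) differed by -4.71 ± 0.16 and -3.70 ± 0.26 between liver and adipose tissue. Slc7a10, the Asc-1 light chain and a known marker of adipocytes, was lower in mammary gland than in adipose tissue by 3.02 (SE 0.15), and Slc36a2 by 3.43 (SE 0.16). The mammary arrays held adipocyte markers at 7.15 to 8.33, and the part of fat cells in the mammary signal of these genes was not tested.

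Slc38a10 had near equal means of 6.68, 6.62 and 6.58 in mammary gland, liver and adipose tissue, and Slc38a2 of 10.72, 10.83 and 10.53. Slc38a10 was called in none of the 3 tissue comparisons, and Slc38a2 only between liver and adipose tissue, by 0.30 ± 0.10 (adjusted p = 0.0124), a call lost with quantile normalization repeated (adjusted p = 0.0858). With arrays centred on their median, Slc38a2 was called lower in mammary gland than in liver (-0.23, adjusted p = 0.0407). With quantile normalization repeated, it was called higher in mammary gland than in adipose tissue (0.26, adjusted p = 0.03).

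**Figure D3:**
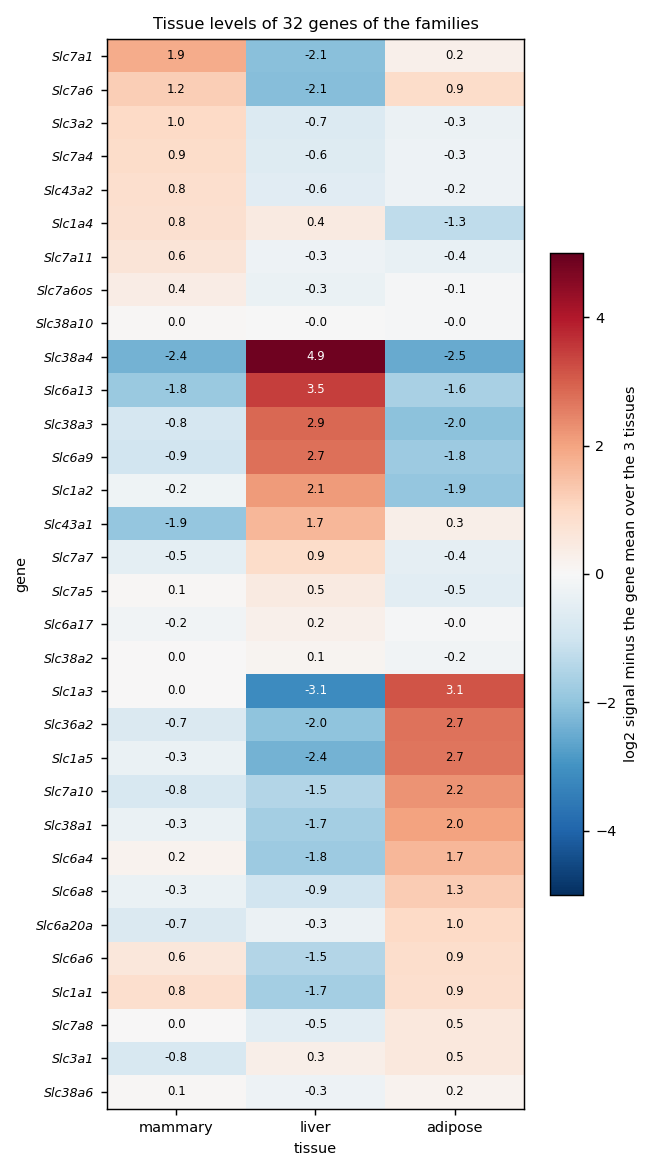
Mean log2 signal of each of the 32 genes with a mean above the array medians in at least 1 tissue, as the deviation from that gene's mean over the 3 tissues; rows are genes, columns tissues, red is higher and blue lower. Slc7a1 leads in mammary gland, Slc38a4, Slc6a13, Slc38a3 and Slc6a9 in liver, and Slc1a3, Slc36a2, Slc1a5 and Slc7a10 in adipose tissue.

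The stage effects of mammary gland were also set against those of the other tissues. At standard gravity the stage effect differed between mammary gland and liver in 12 of 53 genes, where 26.7% of all genes were called, and between mammary gland and adipose tissue in 10, where 26.1% were. Against liver it was higher by 3.03 ± 0.34 for Slc1a2, 2.11 ± 0.43 for Slc7a1, 1.87 ± 0.55 for Slc1a4 and 1.80 ± 0.27 for Slc7a5. It was lower for Slc6a6 (-3.86 ± 0.59), Slc6a14 (-1.79 ± 0.43), Slc6a8 (-1.64 ± 0.43) and Slc43a2 (-1.44 ± 0.46). Against adipose tissue it was higher for Slc1a2 (2.54 ± 0.34), Slc7a5 (1.72 ± 0.27), Slc7a11 (1.63 ± 0.38) and Slc7a8 (1.32 ± 0.28), and lower for Slc6a6 (-2.64 ± 0.59), Slc6a20a (-2.31 ± 0.71), Slc43a2 (-2.04 ± 0.46) and Slc6a14 (-1.85 ± 0.43). These comparisons share the mammary arrays. The Slc6a20a call was lost without A48S (adjusted p = 0.0565), without the arrays that carried markers of another tissue (0.0635) and with only the groups compared in the fit (0.122). That of Slc7a1 against adipose tissue (1.26 ± 0.43) was lost without any 1 of 6 arrays (up to 0.0985), without the arrays that carried markers of another tissue (0.0898), with M210H and A210H kept (0.0919), with only the groups compared (0.101) and with quantile normalization repeated (0.0628). The call on Slc6a9 against liver (1.35 ± 0.45) was lost without M201S or L219S (up to 0.0581). With the mean over all probe sets of a gene, Slc6a8, Slc6a9 and Slc43a2 against liver and Slc6a6 and Slc43a2 against adipose tissue lost their calls (adjusted p from 0.0595 to 0.206).

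The hypergravity effect in lactation differed between mammary gland and liver in 6 of 53 genes, where 6.41% of all genes were called. It was higher in mammary gland for Slc1a1 (3.57 ± 0.57, adjusted p = 1.37e-05), Slc6a14 (2.18 ± 0.44), Slc43a2 (2.08 ± 0.47) and Slc3a2 (1.49 ± 0.31), and lower for Slc1a2 (-1.31 ± 0.35) and Slc7a4 (-1.17 ± 0.34, adjusted p = 0.0316). The Slc7a4 call was lost without any 1 of 7 arrays (adjusted p up to 0.0738), without the arrays that carried markers of another tissue (0.0601) and with quantile normalization repeated (0.0552). That of Slc43a2 was lost with the mean over its probe sets (1.41, adjusted p = 0.0547), and with M210H and A210H kept those of Slc3a2, Slc43a2 and Slc6a14 were lost (0.113, 0.0613 and 0.0777). Slc7a5 was not called in this comparison (-0.83 ± 0.28, adjusted p = 0.0762), but was called lower in mammary gland without the arrays that carried markers of another tissue (-1.03, adjusted p = 0.0292), with array weights (0.02) and with quantile normalization repeated (0.0446).

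In the liver at standard gravity, no gene of the families was called between lactation and pregnancy by limma, where 0.732% of all genes were called. An unadjusted p under 0.05 was found for 7 of 53 (13.2%) and for 11.9% of all genes. The smallest p belonged to Slc38a3, at -0.50 ± 0.15 (adjusted p = 0.146) without overlap, and to Slc43a1, at -0.59 ± 0.20 (adjusted p = 0.22). In hypergravity 3 genes were called, each lower in lactation, where 4.38% of all genes were called in either direction. They were the exchanger Slc7a7, the glycine carrier Slc6a9 and the cationic carrier Slc7a1.

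Slc7a7 encodes y+LAT1, the light chain that exports cationic amino acids in exchange for neutral ones, on chromosome 15 at 31792122 to 31852732. It read 9.76, 10.04, 9.08, 10.02 and 10.05 in pregnancy in hypergravity (L50H, L55H, L56H, L59H and L60H) and 6.99, 7.50, 7.75, 6.61 and 7.39 in lactation (L203H, L206H, L210H, L212H and L217H). L212H, with the lowest of these values, stood apart as an array. The 75th percentile of its log2 signals was 6.53, against 6.95 to 7.02 in the other lactating hypergravity liver arrays. The groups lay more than 1 log2 unit apart at their nearest arrays, and the fall was 2.54 ± 0.34 on the log2 scale (adjusted p = 0.000179). At standard gravity the difference was -0.75 ± 0.34 (adjusted p = 0.409). Slc7a7 was not called between gravities in pregnancy (0.79 ± 0.34, adjusted p = 0.552) or in lactation (-0.997 ± 0.34, adjusted p = 0.221).

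Slc6a9 read 10.22, 10.14, 10.06, 10.13 and 10.39 in pregnancy in hypergravity and 7.20, 6.67, 8.99, 8.41 and 8.86 in lactation. It fell by 2.16 on the log2 scale (SE 0.33, adjusted p = 0.000685), and the pregnant arrays were tightly grouped (SD 0.13) while the lactating ones were not (SD 1.04). Slc7a1 read 6.88, 6.99, 7.02, 6.22 and 7.40 against 6.11, 5.98, 5.93, 5.72 and 5.82, a fall of 0.99 on the log2 scale (SE 0.22, adjusted p = 0.0164). The call of Slc7a1 was lost without L60H (adjusted p = 0.0545) and with the mean over its probe sets (adjusted p = 0.0762). Slc38a4 (0.46 ± 0.13, adjusted p = 0.0509) and Slc3a2 (-0.71 ± 0.20, adjusted p = 0.0533) did not overlap between groups and missed the threshold narrowly. Without L210H both passed it, at 0.53 (adjusted p = 0.0233) and -0.81 (adjusted p = 0.0318), making 5 calls.

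In the same comparison 7 of 18 catabolic genes were higher in lactation in hypergravity, where 1.83% of all genes were called higher, and 1 was lower, where 2.55% were. They included Sds, which breaks down serine, at 2.87 (adjusted p = 0.00678), the proline oxidase Prodh at 1.96 and Ass1 of the urea cycle at 1.86. Of the synthetases 2 of 19 were lower, where 2.55% of all genes were, Cars1 (-1.18) and Yars1 (-0.61).

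Between gravities no gene of the families was called by limma in the pregnant liver, where 0.127% of all genes were. An unadjusted p under 0.05 was found for 9 of 53 (17.0%) and for 8.84% of all genes. The smallest were Slc3a2 at 0.73 ± 0.20 (adjusted p = 0.215) and Slc38a4 at -0.38 ± 0.13 (adjusted p = 0.373). In the lactating liver 1 gene, Slc6a9, was called lower in hypergravity, where 0.485% of all genes were called in either direction. Standard gravity arrays read 9.92, 9.78, 9.60, 9.60 and 9.09 (L201S, L202S, L214S, L216S and L219S), all above the hypergravity arrays, and the fall was 1.57 on the log2 scale (SE 0.33, adjusted p = 0.0416). That call was lost without L203H, L212H, L201S, L202S, L214S, L216S or L219S (adjusted p up to 0.12), with only the groups compared in the fit (adjusted p = 0.271), without the arrays that carried markers of another tissue (0.084) and with quantile normalization repeated (0.0576).

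**Figure D4:**
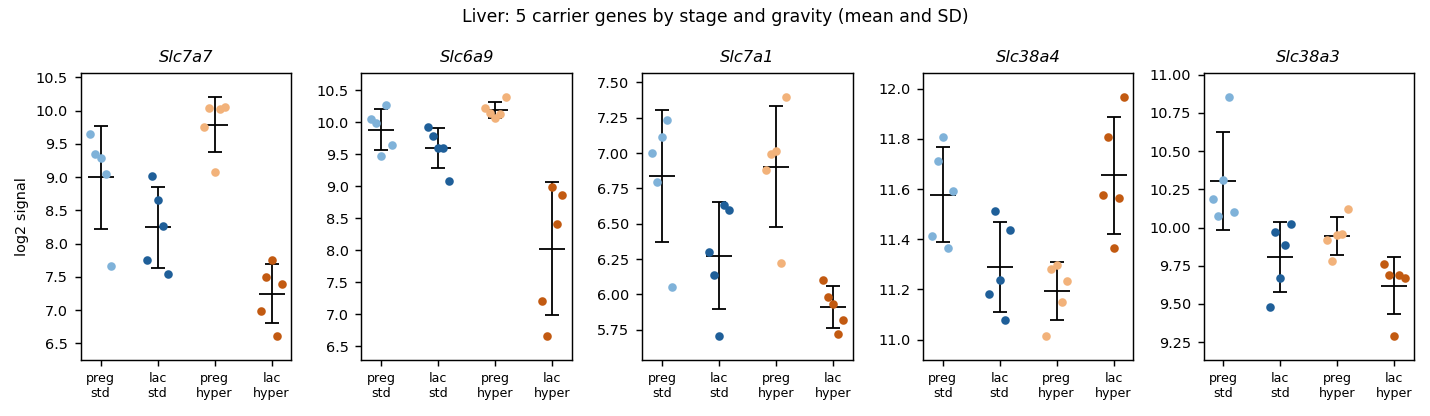
Log2 signal of 5 carrier genes in liver, 1 panel a gene, for pregnant (preg) and lactating (lac) rats at standard gravity (std) and in hypergravity (hyper); dots are arrays and bars the mean and SD. Slc7a7 and Slc6a9 stand at 6.61 to 7.75 and 6.67 to 8.99 in lactation in hypergravity, below all arrays of pregnancy in hypergravity.

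In adipose tissue limma called no gene of the families in the 4 comparisons, where 0.00703% of all genes were called between stages at standard gravity and 0.0% in the other 3. Between lactation and pregnancy 1 of 53 genes (1.89%) had an unadjusted p under 0.05 at standard gravity, against 6.12% of all genes, and 1 in hypergravity, against 4.31%. Between gravities 2 (3.77%) had one in pregnancy, against 3.89% of all genes, and 0 in lactation, against 2.38%. The genes were Slc1a1 at standard gravity (0.97 ± 0.42, adjusted p = 0.786), Slc6a20a in hypergravity (-1.83 ± 0.77, adjusted p = 1), and Slc1a2 (0.59 ± 0.20) and Slc36a3 (-0.20 ± 0.09) between gravities in pregnancy (adjusted p = 1 each). The groups of Slc6a20a did not overlap, and those of the other 3 did.

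In the pregnant mammary gland, limma called no gene of the families between microgravity and either control. Of all genes 0.506% were called against the flight control, 0.626% against the vivarium control and 0.0% between the 2 controls, where no gene of the families was called either. An unadjusted p under 0.05 was found for 6 of 53 genes (11.3%) against the flight control, where 15.1% of all genes had one, and for 6 against the vivarium control, where 11.1% had. Between the controls it was found for 3 (5.66%), against 9.78% of all genes. The comparisons share arrays, since microgravity enters 2 of them and each control 2.

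Slc3a2, the heavy chain, read 9.14, 9.28, 9.47 and 9.50 in microgravity (FLTA to FLTD), 9.01, 8.97, 8.91 and 9.11 in the flight control and 8.99, 8.89, 8.98 and 9.03 in the vivarium control. Every microgravity array lay above every control array. The differences were 0.35 ± 0.11 against the flight control (adjusted p = 0.18) and 0.38 ± 0.11 against the vivarium control (adjusted p = 0.178), and the controls differed by 0.03 ± 0.11 (adjusted p = 0.944). Slc7a5, the light chain LAT1, read 5.24, 5.26, 5.88 and 5.85 in microgravity, 4.31, 5.71, 4.08 and 4.76 in the flight control and 4.40, 4.73, 5.09 and 4.31 in the vivarium control. Its differences were 0.84 ± 0.31 (adjusted p = 0.271) and 0.92 ± 0.31 (adjusted p = 0.285), the first with overlap through FDSB.

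Slc38a9 was dim and stood apart in the flight control, at 3.47, 3.37, 3.24 and 3.60, from microgravity at 2.86, 3.02, 2.95 and 2.86 and from the vivarium control at 2.86, 3.05, 2.94 and 2.81. Its differences were -0.50 ± 0.11 for microgravity against the flight control (adjusted p = 0.0739) and 0.51 ± 0.11 between the controls (adjusted p = 0.305). Slc6a9 had the next smallest p between the controls, at -0.42 ± 0.18 (adjusted p = 0.525). Slc6a14 differed by 0.69 ± 0.21 and 0.61 ± 0.21 (adjusted p = 0.183 and 0.309), Slc38a2 by 0.39 ± 0.13 and 0.30 ± 0.13 (adjusted p = 0.204 and 0.465) and Slc43a2 by -0.24 ± 0.19 and -0.55 ± 0.19 (adjusted p = 0.611 and 0.292), against the flight and the vivarium control. The vivarium arrays VIVA and VIVC carried skeletal muscle genes. The vivarium comparisons were also fitted without them, and no call on the families was gained. The part of skeletal muscle in the differences given here was not tested. Lymphocyte genes averaged 5.22 to 9.19 in the flight control arrays, 4.98 to 6.75 in microgravity and 5.05 to 5.30 in the vivarium control. The part of this in the flight control comparisons was not tested.

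In the pathway lists of these comparisons Ggt1 rose in microgravity, by 1.27 against the flight control (adjusted p = 0.00626) and by 1.36 against the vivarium control (adjusted p = 0.00285), and Slc25a29 by 1.06 against the flight control (adjusted p = 0.0384).

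**Figure D5:**
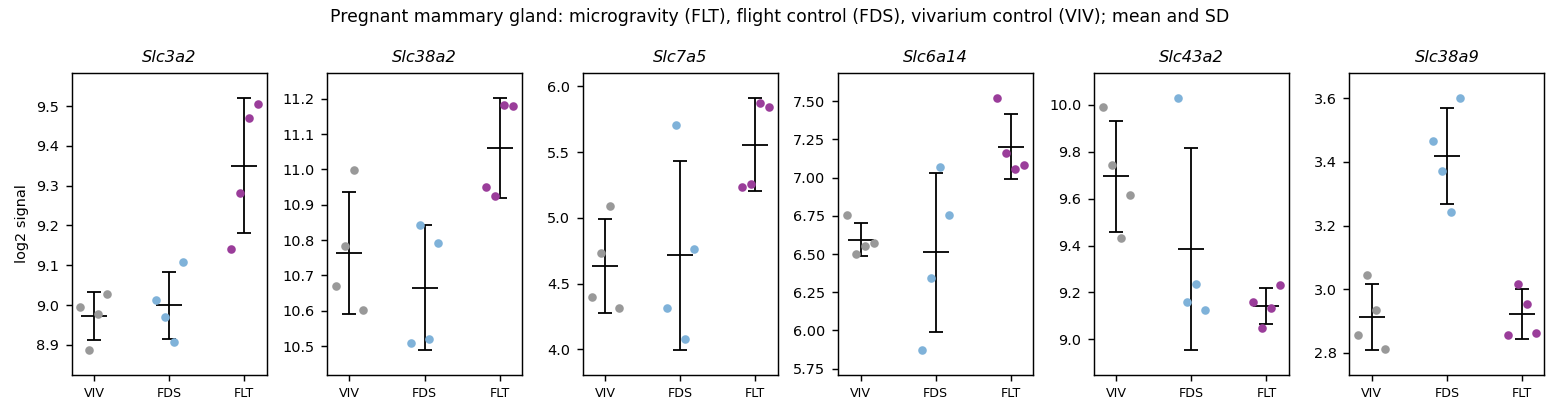
Log2 signal of 6 carrier genes in pregnant mammary gland, 1 panel a gene, for vivarium control (VIV), flight control (FDS) and microgravity (FLT), with 4 arrays each; dots are arrays and bars the mean and SD. The 4 microgravity arrays of Slc3a2 stand at 9.14 to 9.50 and the 8 control arrays at 8.89 to 9.11, while Slc38a9 stands at 3.24 to 3.60 in the flight control and at most 3.05 elsewhere.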

How the data were processed

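RNA was measured on 72 Affymetrix arrays. The authors deposited 1 table of log2 signals for 31042 probe sets, made with RMA per the submitters' processing notes, with no version and 0 columns unused here. Per the labels, RNA came from TRIzol (mammary gland, liver) or RNeasy Lipid (adipose tissue) extraction, so extraction and adipose tissue cannot be told apart, and was amplified with the NuGEN Ovation system. The labels give no batch or scan date. Platform annotation named 20826 probe sets with 1 symbol, 436 with several and 9780 with none.

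Differences were fitted with limma 3.58.1 in R 4.3.3 (group means, eBayes, two-sided, Benjamini-Hochberg over all probe sets within a comparison), in 1 fit per tissue, 1 over the 58 arrays of the 3 tissues and 1 for the microgravity set. SE is limma's moderated error. Shares of all genes use the brightest probe set of each symbol, and the marker lists their mean per array. The code was tested on simulated data. Genes with full values were, per comparison, up to 8 called in each direction (mammary stage, mammary hypergravity in lactation), elsewhere up to 4 or the 2 with the smallest p, and 15 mammary genes always; genes named beyond these were chosen after their values were seen. The members, lists and tests were chosen with earlier results of these data known.

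The rat codes recur in the 3 tissues. Deviations from group means correlated at a median of 0.134 in 57 pairs of arrays with the same rat code and -0.0065 in 1484 other pairs. Alternatives were both left-out arrays kept, arrays with foreign markers left out, array weights, trend and robust eBayes, fewer groups in the fit, centring, repeated quantile normalization, a filter on dim probe sets, the mean over probe sets, replicate blocks and each array left out.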

Additional observations from a re-analysis of the deposited data

Results flagged for a closer look

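In 81 gene and group pairs of 4 or 5 mammary or liver arrays, 4 held an array far from the others, where chance gives about 5% of pairs. All 4 were in mammary gland. In lactation in hypergravity Slc38a10 read 5.45 in M203H and Slc38a2 10.67 in M206H. In pregnancy in hypergravity Slc38a10 read 6.13 in M56H, an array that carries hepatocyte genes. In lactation at standard gravity Slc3a2 read 8.22 in M214S.

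Effects of the same contrast differed between gravities in mammary gland by 3.23 for Slc1a1, 2.16 for Slc43a2, 1.36 for Slc3a2, -1.18 for Slc7a1 and -1.83 for Slc1a2. Stage effects at standard gravity differed between mammary gland and liver by 3.03 for Slc1a2, 2.11 for Slc7a1, 1.87 for Slc1a4, 1.80 for Slc7a5, 1.60 for Slc7a11, 1.35 for Slc6a9, 1.32 for Slc7a8, 0.98 for Slc38a2, -1.44 for Slc43a2, -1.64 for Slc6a8, -1.79 for Slc6a14 and -3.86 for Slc6a6. Between mammary gland and adipose tissue they differed by 2.54 for Slc1a2, 1.72 for Slc7a5, 1.63 for Slc7a11, 1.32 for Slc7a8, 1.26 for Slc7a1, -1.22 for Slc38a6, -1.85 for Slc6a14, -2.04 for Slc43a2, -2.31 for Slc6a20a and -2.64 for Slc6a6. Hypergravity effects in lactation differed between mammary gland and liver by 3.57 for Slc1a1, 2.18 for Slc6a14, 2.08 for Slc43a2, 1.49 for Slc3a2, -1.17 for Slc7a4 and -1.31 for Slc1a2. Each of these passed limma's test of the difference, and the report gives, beside these comparisons, the calls that were lost under other settings.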

How the results depend on the processing

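Of 180 calls on single genes, 1692 values under the alternatives other than leaving out 1 array held 1618 that kept direction and side of the threshold, 73 that lost the call and 1 that reversed, Slc6a6 in the mammary stage comparison in hypergravity (0.0131, adjusted p = 0.976, with the mean over all probe sets). Without 1 array, 5057 values held 4929 kept and 128 lost calls. The 180 calls include 39 for mammary gland against liver, 26 for mammary gland against adipose tissue and 38 for liver against adipose tissue. These totals were not split by comparison, so they do not give the stability of the stage and gravity calls alone. With M210H and A210H kept, calls were 6 in the mammary stage comparison in hypergravity (14 without them), 2 for the difference of stage effects (5) and 3 for the hypergravity effect of mammary gland against liver (6). The single call of lactating liver between gravities became 0 without foreign-marker arrays, with only the groups compared and with quantile normalization repeated, and 0 to 1 without 1 array. The liver stage comparison in hypergravity gave 5 calls with dim probe sets left out and 2 to 5 without 1 array. Microgravity against the vivarium control gave 3 calls with array weights (Slc3a2, Slc6a14 and Slc43a2) and 1 with only these groups (Slc6a14). The standard gravity stage effect of mammary gland against liver gave 19 with array weights. Without dim probe sets, mammary gland against liver gave 24 and liver against adipose tissue 25, since only 28 members were then tested.

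If a code names the same rat in each tissue, the rats pair the tissues. With the rat as a replicate block (correlation 0.097), calls were 41 for mammary gland against liver (39 without), 26 against adipose tissue, 38 for liver against adipose tissue, 12 and 11 for the standard gravity stage effects and 6 for the hypergravity effect, and every call made without the block was kept. In the microgravity set, the array letter as a replicate block left 0 calls in all 3 comparisons. Deviations of same-letter arrays correlated at -0.153 to 0.0832. The labels do not say what the letters mean, so whether they pair arrays cannot be told. The number of arrays limits the precision, and members under the array medians may lie near background.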

Other observations

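The carrier genes could also be read on the 2 arrays left out. In lactation in hypergravity the mammary and adipose arrays did not overlap at 24 of the 53 genes (45.3%), against 31.0% of all genes. At these 24, M210H lay nearer the adipose mean at 22 and A210H nearer the mammary mean at 18. Slc1a3, at 8.48 to 9.03 in mammary gland and 11.45 to 12.26 in adipose tissue, read 12.37 in M210H and 8.71 in A210H. Slc1a5, at 4.55 to 5.12 and 8.52 to 9.36, read 8.54 in M210H and 4.14 in A210H. A210H lay nearer the adipose mean at Slc1a1, Slc3a2, Slc6a4, Slc6a14, Slc6a20a and Slc7a11. Slc1a1, at 7.05 to 9.64 in mammary gland and 5.37 to 6.72 in adipose tissue, read 5.23 in A210H. Slc3a2, at 9.03 to 9.40 and 6.69 to 7.26, read 7.81 there. Slc6a14, at 3.45 to 7.11 and 2.26 to 2.54, read 3.39. Slc1a1, Slc3a2 and Slc6a14 were called higher in hypergravity in lactating mammary gland, and no fit placed A210H in that group.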
